A study of Mus musculus with 16 samples.

Results

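The genes described here are 44 genes of the actin cytoskeleton, of contractility and of the YAP and SRF transcription programmes. They were taken by name, from 7 role lists: smooth muscle contractile genes, YAP targets, the regulators SRF, YAP, TAZ and TEAD, non-muscle contractile genes, filament linkers and adhesion plaque genes, actin regulators, and a last list of Rhoa, Rhob, Rhoc, Rock1 and Rhpn2. All 44 had at least 1 probe on the array and all 44 passed the filter on dim probes, out of 18992 genes tested; 78 of their 84 probes passed. The cells were 4TO7, a line of mouse mammary carcinoma kept in medium with 10% serum, and each of 8 groups had 2 Agilent arrays with 2 colours (16 arrays in all). The cells carried retroviral pMSCV vectors. Cluster 1 cells were set against a Puro vector control, Cluster 2 cells against a Hygro vector control, and Clusters 1+2 cells against cells with both the Hygro and Puro vectors. Cells overexpressing CDH1, the gene of E-cadherin, had a Puro vector control of their own. The series is on the miR-200 family, and its labels do not say which miRNAs Cluster 1 and Cluster 2 hold. The design text calls the repeats biological but does not tell whether each came from its own infection, so the p-values measure only the spread between these repeats.

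The actin filament is built, cut, capped and cross-linked by a large set of proteins, and with myosin it generates the tension that holds a cell's shape and adhesions. Kinases and formins switch this machinery on, and a rise in filamentous actin releases cofactors of SRF, the transcription factor that drives many cytoskeletal and smooth muscle genes. YAP and TAZ (gene Wwtr1) are co-activators that read the same tension and cell contact, bind TEAD factors and switch on genes such as Ccn1, Ccn2 and Ankrd1, and the Hippo kinases hold them out of the nucleus. Members of the miR-200 family are known for keeping cells epithelial, mainly by repressing the transcription factors Zeb1 and Zeb2.

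The 5 mature miR-200 RNAs are shown because their seeds, the bases 2 to 8 in capitals, fall into only 2 kinds that differ by 1 base. The sequences are those of RefSeq, placed on GRCm38.p6. Mir429, Mir200a and Mir200b lie together on the minus strand of chromosome 4, and Mir141 and Mir200c on the minus strand of chromosome 6.
mmu-miR-200b-3p: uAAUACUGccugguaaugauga
mmu-miR-200c-3p: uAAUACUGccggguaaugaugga
mmu-miR-429-3p: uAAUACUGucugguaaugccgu
mmu-miR-200a-3p: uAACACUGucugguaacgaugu
mmu-miR-141-3p: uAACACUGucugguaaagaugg
The first 3 share the seed AAUACUG and the last pair shares AACACUG, so each genomic cluster holds both kinds.

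Levels below are log2 ratios of the sample over a common reference RNA of 11 mouse cell lines, and changes are differences between such ratios (log2 fold changes), with the standard error (SE) of limma's fit and a p adjusted over all genes tested; a gene was called at an adjusted p under 0.05. The sample carried Cy3 in the Cluster 2, Clusters 1+2, Hygro vector and Hygro and Puro vector groups, with repeats A on slide 1 and repeats B on slide 2. It carried Cy5 in the other groups, with CDH1 and its control on slide 3 and Cluster 1 and its control on slide 4. Levels are therefore compared within a dye only. Within a group the repeats were 0.0827 to 0.108 apart in log2 ratio (median over genes). The epithelial markers that mark the response moved with the miRNA comparisons: the mean log2 ratio of 6 of them (Cdh1, Epcam, Krt7, Krt8, Krt18, Esrp1) ran from -0.97 to -0.91 with the Hygro vector and from 0.63 to 0.67 in Cluster 2, from -0.56 to -0.48 with both vectors and from 1.48 to 1.57 in Clusters 1+2, and from -0.78 to -0.64 in the Puro vector for Cluster 1 and from 0.68 to 0.70 in Cluster 1. In CDH1 it ran from -0.80 to -0.77, against -0.68 to -0.60 in its control. Cdh1 itself was called higher there (0.61, SE 0.126, adjusted p = 0.00564), from a control that was not well above background on either array. Esrp1 was not called in Cluster 1 (-0.12, adjusted p = 0.532) or Cluster 2 (0.06, adjusted p = 0.828), and was not well above background there. The other markers were called higher in both, Krt7 most (3.52 and 4.19). The mean of -0.56 with both vectors lacks Krt7, and that of -0.78 in the Puro vector for Cluster 1 lacks Krt8. The part of these markers in the changes of the actin genes was not tested.

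With both clusters, 22 of the 44 genes (50%) were called, 18 higher and 4 lower, where 24.9% of all genes were called, 12.1% higher and 12.7% lower. The largest rises were those of Gsn, Rhpn2, Ccn2, Ankrd1 and Ccn1, and the falls were those of Wwtr1, Mylk, Yap1 and Pfn2. With Cluster 1 alone 9 of 44 (20.5%) were called, 8 higher and 1 lower, against 8.24% of all genes (4.84% higher, 3.4% lower). With Cluster 2 alone 5 of 44 (11.4%) were called, 4 higher and 1 lower, against 2.85% of all genes (1.78% higher, 1.07% lower). CDH1 overexpression gave 12 called genes (27.3%), 4 higher and 8 lower, against 14.4% of all genes (7.66% higher, 6.79% lower). The median change over the 44 genes was 0.0957 in Clusters 1+2, 0.0992 in Cluster 1, 0.071 in Cluster 2 and -0.00149 in CDH1, beside medians over all genes of 0.00446, 0.00454, -0.00207 and 0.0059. Gsn, Rhpn2, Tpm2 and Ankrd1 were called higher in all 3 miRNA comparisons, and none of the 44 was called lower in all 3. In none of the 4 comparisons were 21 of the 44 called, among them Srf, Acta2, Tagln, Rhoa and Rock1. For these joint counts the share over all genes was not computed, so they describe the 44 genes only.

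**Figure D1:**
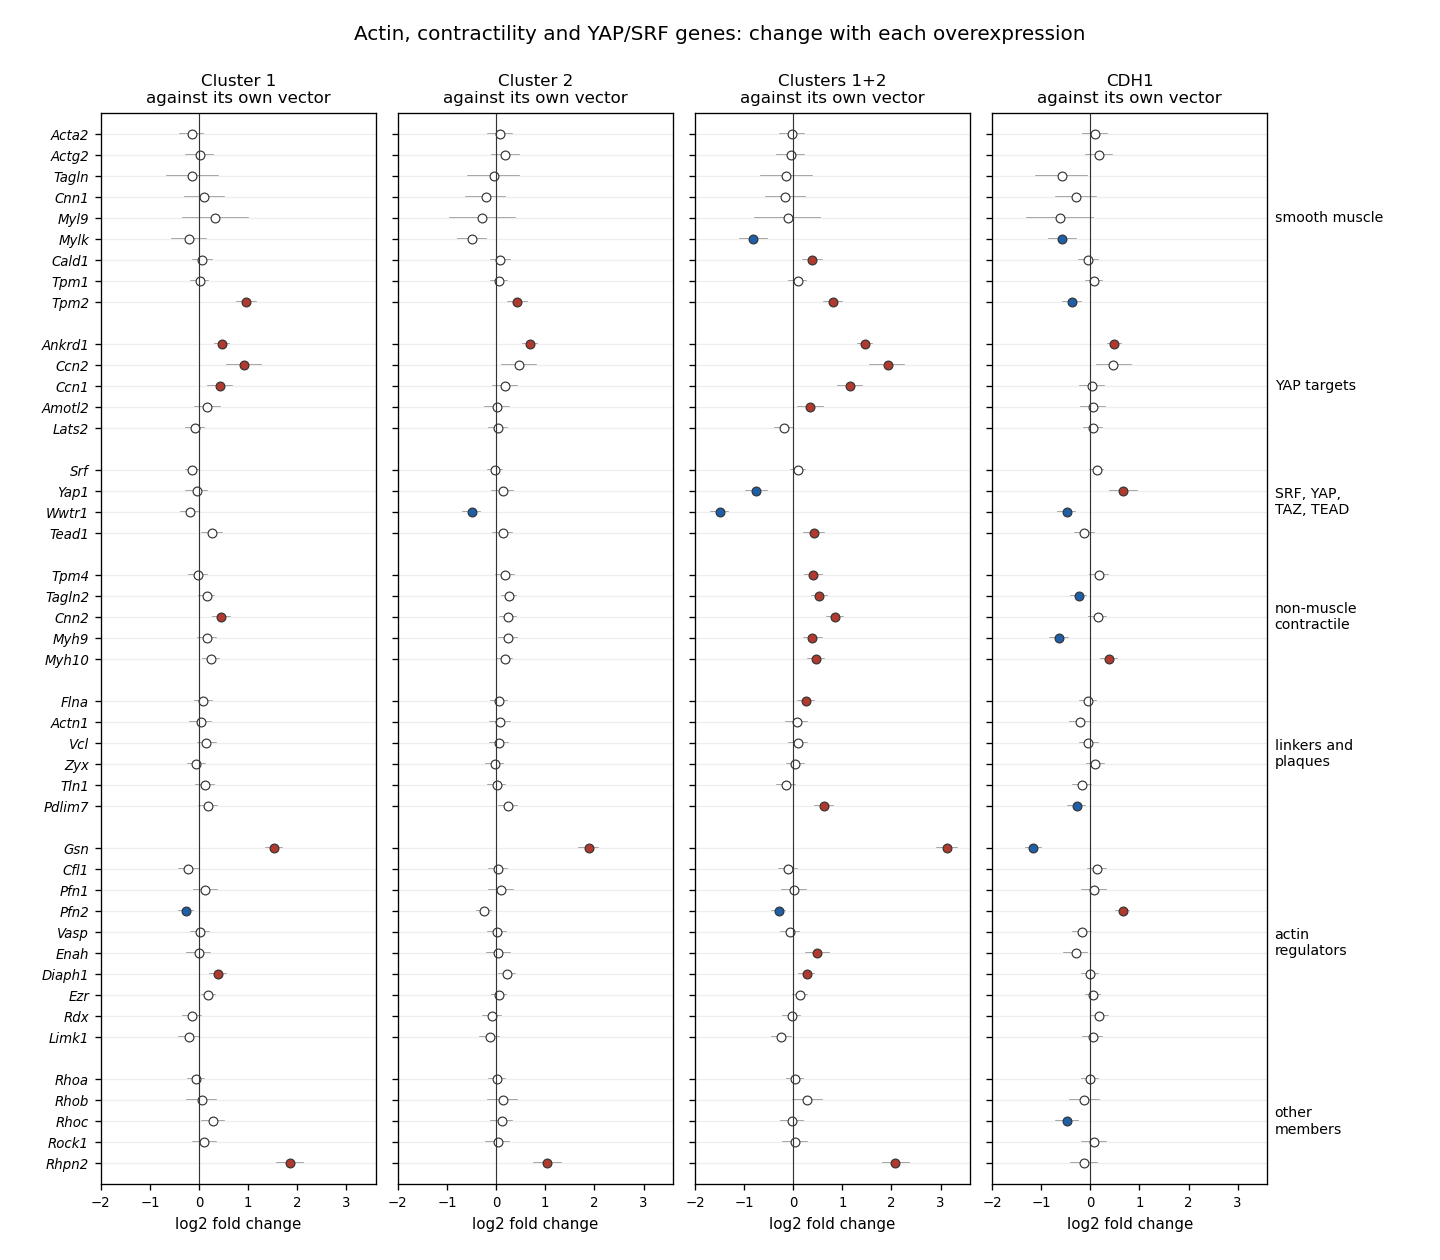
Log2 fold change of the 44 genes in each overexpression against its own vector control (x axis), 1 row a gene, grouped by role; the point is the fitted change and the line its 95% interval. Red points were called higher, blue points lower and open points not called: 22 genes are filled for Clusters 1+2, 9 for Cluster 1, 5 for Cluster 2 and 12 for CDH1.

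The treatment of spots marked by the scanner software and the centring moved these counts. With the marked spots kept, 14 members were called in Clusters 1+2, 5 in CDH1, 2 in Cluster 2 (Gsn and Ankrd1) and 1 in Cluster 1 (Gsn). The share of all genes called was then 13.9%, 6.57%, 0.411% and 1.01% in the same order, so it fell too. In Clusters 1+2 the calls of Gsn, Rhpn2, Ankrd1, Ccn2, Wwtr1, Cnn2, Tpm2, Tagln2, Myh10 and Mylk held under every alternative that gave them a value, and each of the other called members lost its call under at least 1. With each array centred on its median in place of the loess fit, all genes together moved up by 0.135 in Cluster 2 and by 0.106 in CDH1. The share of called genes that were higher then went from 62.6% to 93.4% in Cluster 2, from 53% to 82.7% in CDH1 and from 58.7% to 69.2% in Cluster 1. Among the members, Cluster 2 then called 21 higher and 0 lower, where 12.1% of all genes were called. CDH1 called 11 higher and 3 lower (20.1% of all genes), and Cluster 1 called 9 higher and 1 lower (5.95% of all genes). In Clusters 1+2 the share of called genes that were higher went from 48.8% to 39.3%. There 15 members were called higher and 4 lower, where 18.7% of all genes were called.

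Gsn encodes gelsolin, a calcium-activated protein that severs actin filaments and caps their fast-growing ends, and it changed more than any other member in Clusters 1+2 and in Cluster 2. Its 1 probe lies on the plus strand of chr2:35315078-35315137 (build mm7, as the array files give it); on 2 control arrays the spot was marked by the scanner software and left out. Its log2 ratio was -3.40 on the remaining Hygro vector array and -1.57 and -1.45 in Cluster 2. It was -3.32 on the remaining array with both vectors and -0.21 and -0.19 in Clusters 1+2. The groups were far apart in both cases, and Gsn rose by 1.88 (SE 0.0891, 3.69-fold, adjusted p = 1.35e-06) in Cluster 2 and by 3.13 (SE 0.0891, 8.74-fold, adjusted p = 3.39e-09) in Clusters 1+2. With the marked spots kept, the rises were 1.87 and 3.09. Within slide 2, where all 4 spots counted, they were 1.95 and 3.14. With the spread scaled between arrays the Cluster 2 rise was 1.09.

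For the Cy5 groups the gelsolin result depended on which Puro control was used. In the Puro vector for Cluster 1 the log2 ratio of Gsn was -2.96 and -2.94, and in Cluster 1 it was -1.37 and -1.48, a rise of 1.52 (SE 0.0727, 2.88-fold, adjusted p = 1.15e-06). In the Puro vector for CDH1 it was -1.64 and -1.69, and in CDH1 -2.85 and -2.80, a fall by 1.16 (SE 0.0727, 2.24-fold, adjusted p = 3.77e-06). The 2 Puro controls thus differed by -1.28 (Cluster 1's control minus CDH1's, adjusted p = 2.85e-06). Against the other Puro control, Cluster 1 was higher by 0.24 (SE 0.0727, adjusted p = 0.0722) and CDH1 by 0.12 (SE 0.0727, adjusted p = 0.531), so neither was called. By level, the Puro control for CDH1 (mean -1.66) lay near Cluster 1 (-1.42) and the Puro control for Cluster 1 (-2.95) near CDH1 (-2.83). Cdh1 gave another order, at 0.03 and 0.09 in the Puro vector for CDH1, -0.01 and 0.09 in that for Cluster 1, 0.57 and 0.77 in CDH1 and 1.21 and 1.29 in Cluster 1. Each Puro control lay on a slide of its own, and slide, culture and labelling cannot be told apart.

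The genes whose pattern over the arrays was most like that of Gsn were taken by Pearson's r after the mean of each array's own control group was subtracted. They were Lurap1l (r = 0.993 over 12 arrays), the unnamed transcript TC1429930 (0.991 over 14), Sdc1, which encodes the proteoglycan syndecan 1 (0.99 over 14), Col7a1, which encodes collagen VII of epithelial anchoring fibrils (0.99 over 14), and St3gal2, a sialyltransferase (0.986 over 14). The control arrays sit near 0 by construction, so these values describe the 4 effects and their order. The CDH1 effect was taken against its own Puro control, where Gsn changed by -1.16, while against the other it stood at 0.12. The likeness to Gsn under the other control was not computed. Sdc1 changed by 0.64 in Cluster 1, 0.59 in Cluster 2, 1.15 in Clusters 1+2 and -0.44 in CDH1. Col7a1 changed by 1.05, 1.45, 2.02 and -0.59 in the same order. Among the members, Tagln2 (0.97), Pdlim7 (0.957) and Rhpn2 (0.917) came closest, and Pfn2 (-0.847) and Limk1 (-0.814) lay at the other end.

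The other 9 actin regulators changed little beside Gsn. Diaph1, a formin that elongates filaments, rose by 0.39 in Cluster 1 (SE 0.0725, adjusted p = 0.00533) and by 0.27 in Clusters 1+2 (SE 0.0725, adjusted p = 0.0155), but its other probe gave -0.05 and 0.38. Without Cluster 1 repeat B the first rise was 0.34 (adjusted p = 0.0504), and without the control repeat A or either Clusters 1+2 array the second was 0.20 to 0.29 (adjusted p = 0.0523 to 0.123). Enah, an anti-capping protein of the leading edge, rose by 0.49 in Clusters 1+2 (SE 0.108, adjusted p = 0.00508), and its other probes gave -0.18 and 0.39. Pfn2, which encodes the actin monomer-binding protein profilin 2, was -0.32 and -0.36 with both vectors and -0.68 and -0.61 in Clusters 1+2, a fall by 0.30 (SE 0.0629, adjusted p = 0.00322). It fell by 0.27 in Cluster 1 (adjusted p = 0.0188), where leaving out any 1 of the 4 arrays ended the call (adjusted p = 0.0632 to 0.111), and against the other Puro control it was 0.26 higher (adjusted p = 0.024). In CDH1 it rose by 0.66 (SE 0.0629, adjusted p = 2.32e-05), and by 0.13 against the other Puro control (adjusted p = 0.377). Cfl1 (cofilin), Pfn1, Vasp, the membrane linkers Ezr and Rdx, and the cofilin kinase Limk1 were called in no comparison, with changes between -0.24 (Limk1, Clusters 1+2) and 0.19 (Ezr, Cluster 1).

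In Clusters 1+2, 4 of 5 YAP targets were called higher, with a median change of 1.15, where 12.1% of all genes were called higher. The co-activator genes Wwtr1 and Yap1 were both called lower, as were 12.7% of all genes. Ankrd1, which encodes an ankyrin-repeat protein of nucleus and sarcomere, had log2 ratios of -0.57 and -0.53 with both vectors and 0.90 and 0.92 in Clusters 1+2, a rise of 1.46 (SE 0.0659, 2.75-fold, adjusted p = 9.51e-09). Ccn2, a secreted matrix-associated signalling protein also known as CTGF, went from -1.92 and -1.84 to 0 and 0.07, a rise of 1.92 (SE 0.158, 3.77-fold, adjusted p = 1.88e-06). Ccn1, its relative CYR61, went from -2.67 and -2.43 to -1.41 and -1.38, a rise of 1.15 (SE 0.111, 2.23-fold, adjusted p = 7.17e-06). For all 3 genes both overexpression arrays lay above both control arrays; over all genes with 4 values, 57.8% had groups that did not overlap in Clusters 1+2, and 24.9% were called. Each has 1 probe, on mm7 at chr19:35813004-35813063 (Ankrd1, minus strand), chr10:24349402-24349461 (Ccn2, plus strand) and chr3:145544387-145544446 (Ccn1, minus strand). The changes within slide 1 and slide 2 were 1.47 and 1.45 for Ankrd1, 1.92 and 1.91 for Ccn2, and 1.26 and 1.05 for Ccn1. With the marked spots kept, Ccn1 stood at 1.16 and was no longer called (adjusted p = 0.111).

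The remaining targets moved less. Amotl2, a scaffold that binds YAP, rose by 0.34 (SE 0.117, adjusted p = 0.0489), and without control repeat A or either Clusters 1+2 array it was no longer called (0.24 to 0.36, adjusted p = 0.124 to 0.264). Lats2, a Hippo kinase that is itself a YAP target, changed by -0.19 (SE 0.0834, adjusted p = 0.122), and its 3 other probes gave -0.10 to 0.16.

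Wwtr1, the gene of TAZ, was 0.31 and 0.37 with both vectors and -1.12 and -1.19 in Clusters 1+2. It fell by 1.49 (SE 0.0805, 2.82-fold, adjusted p = 4.12e-08), by 1.43 within slide 1 and 1.56 within slide 2, and its other probe fell by 0.79. The probe used lies at chr3:57585684-57585743 on the minus strand, and the 1 probe of Yap1 at chr9:7956436-7956495 on the minus strand (mm7). In Cluster 2 it was -0.22 and -0.17 against 0.29 and 0.33 with the Hygro vector, a fall by 0.50 (SE 0.0805, adjusted p = 0.004), which was no longer called with median centring (-0.19, adjusted p = 0.257), with the spread scaled between arrays (-0.39, adjusted p = 0.192), in the sample channel alone (-0.47, adjusted p = 0.157) or with the marked spots kept (-0.53, adjusted p = 0.401). Yap1 was 0.99 and 1.17 with both vectors and 0.27 and 0.39 in Clusters 1+2, a fall by 0.75 (SE 0.0995, 1.68-fold, adjusted p = 0.00016). Yap1 was at -0.83 (adjusted p = 0.0861) from the processed signals and at -0.53 (adjusted p = 0.0895) in the sample channel alone, neither called. In Cluster 2, where Wwtr1 fell, Yap1 stood at 0.13 (SE 0.0995, adjusted p = 0.622) and in Cluster 1 at -0.04 (adjusted p = 0.895). Tead1, a DNA-binding partner of both, rose by 0.42 in Clusters 1+2 (SE 0.0926, adjusted p = 0.0047; 0.34 without control repeat B, adjusted p = 0.0519). Srf changed by 0.10 (SE 0.0631, adjusted p = 0.302).

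With 1 cluster, 3 of the 5 YAP targets were called higher in Cluster 1, where 4.84% of all genes were, and 1 in Cluster 2, where 1.78% were. Ankrd1 rose by 0.68 in Cluster 2 (SE 0.0659, adjusted p = 6.93e-05), from -0.61 on both Hygro vector arrays to 0.06 and 0.08. In Cluster 1 it rose by 0.46 (SE 0.0659, adjusted p = 0.000945), from -0.27 and -0.42 to 0.12 and 0.11. Against the other Puro control that rise was 0.21 (adjusted p = 0.077). Ccn2 went from -1.17 and -1.39 to -0.46 and -0.28 in Cluster 1, a rise of 0.92 (SE 0.158, adjusted p = 0.00326), and 1.33 against the other Puro control (adjusted p = 2e-04). In Cluster 2 its change of 0.47 (SE 0.158, adjusted p = 0.174) was not called. Ccn1 rose by 0.43 in Cluster 1 (SE 0.111, adjusted p = 0.031). Without Cluster 1 repeat A or either control array it was no longer called (0.32 to 0.45, adjusted p = 0.117 to 0.258). In Cluster 2 Ccn1 changed by 0.18 (adjusted p = 0.497).

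**Figure D2:**
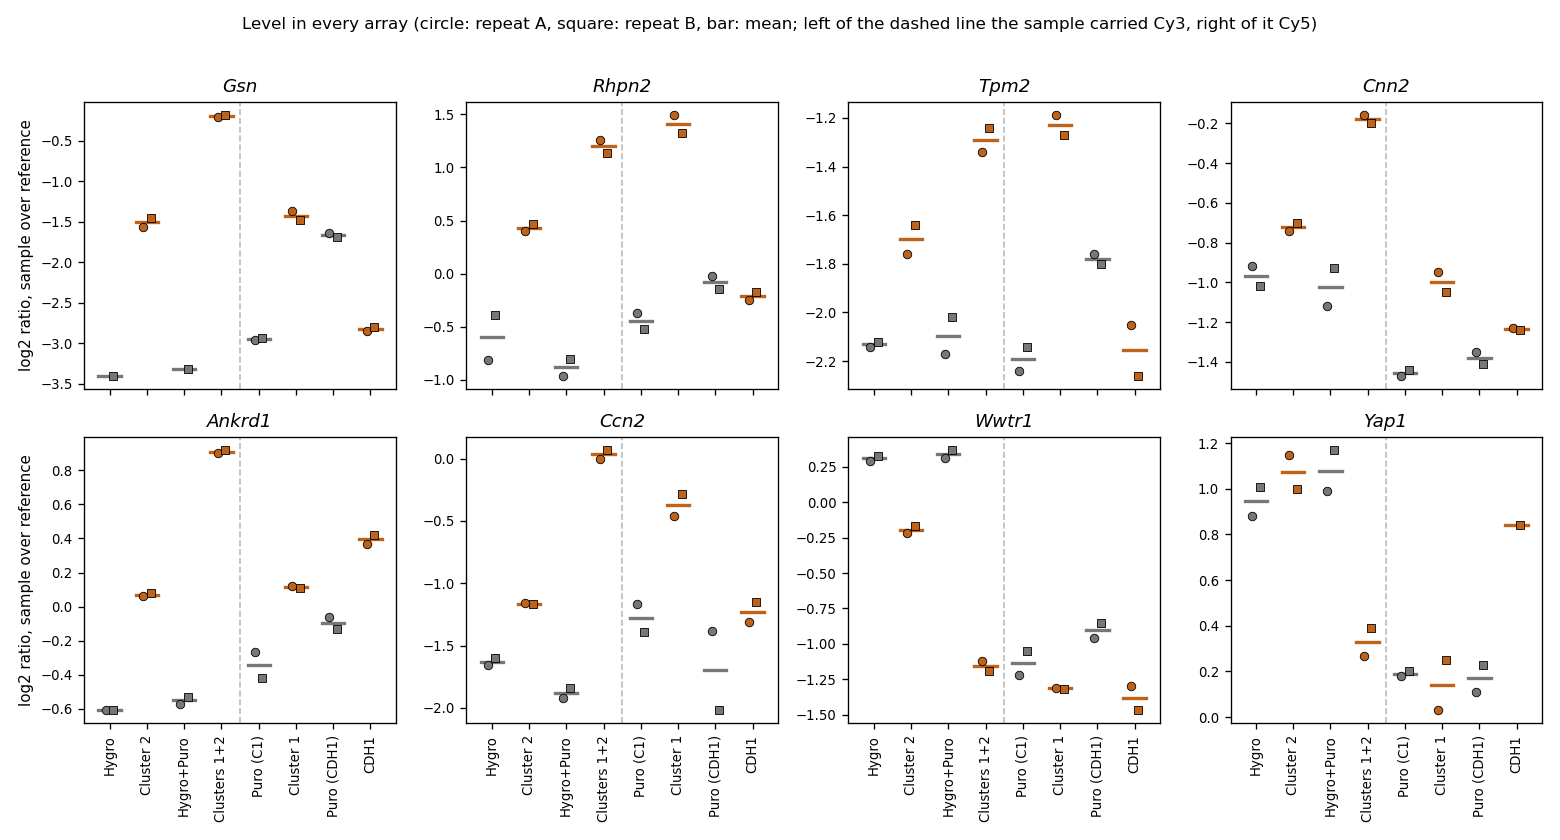
Log2 ratio of sample over reference (y axis) on each array for 8 genes in the 8 groups (x axis); grey is a vector control, orange an overexpression, circles repeat A, squares repeat B and bars the mean. Gsn, Rhpn2, Tpm2, Cnn2, Ankrd1 and Ccn2 sit higher in each miRNA group than in its own control, Wwtr1 and Yap1 fall in Clusters 1+2 (from 0.31 and 0.37 to -1.12 and -1.19 for Wwtr1), and the 2 Puro controls sit apart for Gsn.

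The windows upstream of 3 of these genes are printed because the letters known to be bound by TEAD factors (GGAATG, or CATTCC on the other strand) and by SRF (the CArG box) can be seen in them. Each is the 250 bases before the annotated start in RefSeq on GRCm38.p6, on the strand of the gene, with the motif in capitals. Ankrd1 lies on the minus strand (chr19:36119845-36120094), with the first GGAATG starting at position -210 from the start of the gene. Ccn1 also lies on the minus strand (chr3:145649986-145650235), with the motif at -103. Cnn2, a gene of the next group, lies on the plus strand (chr10:79988350-79988599), with a CArG box at -56.
Ankrd1: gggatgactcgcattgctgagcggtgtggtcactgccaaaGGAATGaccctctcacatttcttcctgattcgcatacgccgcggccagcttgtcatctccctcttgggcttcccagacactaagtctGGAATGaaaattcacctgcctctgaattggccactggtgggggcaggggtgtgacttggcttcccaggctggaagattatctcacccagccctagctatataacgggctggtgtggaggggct
Ccn1: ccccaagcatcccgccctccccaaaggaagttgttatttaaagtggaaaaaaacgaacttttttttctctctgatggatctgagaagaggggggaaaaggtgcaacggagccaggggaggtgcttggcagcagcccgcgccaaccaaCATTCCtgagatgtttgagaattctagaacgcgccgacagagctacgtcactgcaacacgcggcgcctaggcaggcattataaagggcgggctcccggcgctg
Cnn2: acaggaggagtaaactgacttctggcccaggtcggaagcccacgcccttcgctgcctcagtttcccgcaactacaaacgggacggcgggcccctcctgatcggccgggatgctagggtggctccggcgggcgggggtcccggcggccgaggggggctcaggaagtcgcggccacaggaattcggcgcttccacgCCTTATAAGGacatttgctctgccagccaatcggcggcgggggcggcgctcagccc
Windows from 250 bases before to 50 after the start were matched for 38 of the 44 genes. On either strand GGAATG stood in all 4 YAP target genes with a window (Ankrd1, Ccn1, Amotl2 and Lats2), in 15 of the 38 genes, and in 16.6% of all 27025 genes with a window. The CArG box was counted only in its strict form, CCWWWWWWGG with W for A or T, and looser forms were not counted. This form stood in 4 of the 38 (Myl9, Srf, Cnn2 and Vcl) and in 1.81% of all genes. A gene without it, such as Acta2, can still hold a looser form. Of the genes with the strict form, Cnn2 was called in a miRNA comparison, while Myl9, Srf and Vcl were called in none. The letters are a description of the window, and binding was not measured.

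Of the 9 smooth muscle contractile genes, 2 were called higher and 1 lower in Clusters 1+2, near the 12.1% and 12.7% of all genes, and the median change was -0.0546. Acta2, the smooth muscle actin itself, was -0.24 and -0.07 with both vectors and -0.21 and -0.16 in Clusters 1+2. Its change was -0.02 (95% interval -0.26 to 0.21). Tagln (transgelin) changed by -0.14 (95% interval -0.66 to 0.38), Cnn1 (calponin 1) by -0.16 (-0.55 to 0.24), Myl9 (a regulatory myosin light chain) by -0.11 (-0.78 to 0.55), Actg2 (the enteric actin) by -0.05 (-0.33 to 0.22) and Tpm1 by 0.09 (-0.08 to 0.26). The intervals of Tagln and Myl9 were wide, and their control repeats lay far apart (-3.92 and -3.26 for Tagln, -4.95 and -4.16 for Myl9). Cnn1 was above background on 1 of 2 arrays in the Hygro vector and Cluster 2 groups. Other probes of Tpm1 gave -0.48 and 0.22.

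The 3 of these genes called in Clusters 1+2 were Tpm2, Mylk and Cald1. Tpm2, which encodes a tropomyosin that coats and stabilises filaments, rose in each miRNA comparison. Its log2 ratio was -2.24 and -2.14 in the Puro vector for Cluster 1 and -1.19 and -1.27 in Cluster 1, a rise of 0.96 (SE 0.086, 1.94-fold, adjusted p = 2.87e-05), which was 0.55 against the other Puro control (adjusted p = 0.00149). With both vectors it was -2.17 and -2.02 and in Clusters 1+2 -1.34 and -1.24, a rise of 0.81 (SE 0.086, adjusted p = 1.75e-05). In Cluster 2 the rise was 0.43 (SE 0.086, adjusted p = 0.0165), and without either Hygro vector array or Cluster 2 repeat B it was 0.37 to 0.44 and no longer called (adjusted p = 0.0532 to 0.144). The other probe of Tpm2 gave 0.63, 0.81 and 0.40 for Cluster 1, Clusters 1+2 and Cluster 2. Mylk, which encodes the kinase that activates myosin II, was -0.72 on both arrays with both vectors and -1.69 and -1.39 in Clusters 1+2, a fall by 0.81 (SE 0.127, adjusted p = 0.000559). Of its other probes 1 fell by 0.96 and 1 changed by 0.12. In Cluster 2 Mylk changed by -0.49 (SE 0.127, adjusted p = 0.0681), and by -0.68 without Cluster 2 repeat B (adjusted p = 0.0219). Cald1, the actin-binding protein caldesmon, rose by 0.38 in Clusters 1+2 (SE 0.0902, adjusted p = 0.00728; 0.33 without Clusters 1+2 repeat B, adjusted p = 0.0647).

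All 5 non-muscle counterparts were called higher in Clusters 1+2 by the probe used, where 12.1% of all genes were called higher. Their median change was 0.465. Cnn2, the widely expressed calponin, went from -1.12 and -0.93 to -0.16 and -0.20, a rise of 0.85 (SE 0.076, 1.80-fold, adjusted p = 3.98e-06), by 0.96 within slide 1 and 0.73 within slide 2. Tagln2, the widely expressed transgelin, went from 0.06 and 0.14 to 0.64 and 0.63, a rise of 0.53 (SE 0.071, adjusted p = 0.000117). The tropomyosin Tpm4 rose by 0.41 (SE 0.084, adjusted p = 0.00281). Myh9 and Myh10, the heavy chains of non-muscle myosin IIA and IIB, rose by 0.39 (SE 0.0844, adjusted p = 0.00403) and 0.47 (SE 0.0739, adjusted p = 0.000466). The other probe of each moved little, at -0.01 for Myh9 and 0.09 for Myh10, and the mean over both probes of Myh9 was not called (0.19, adjusted p = 0.157). With 1 cluster, Cnn2 rose by 0.45 in Cluster 1 (SE 0.076, adjusted p = 0.00262) and the other 4 were not called, with changes from -0.02 (Tpm4) to 0.24 (Myh10). Of all genes, 4.84% were called higher in Cluster 1. In Cluster 2 none of the 5 was called, where 2.85% of all genes were, and the changes ran from 0.17 (Myh10) to 0.26 (Tagln2, adjusted p = 0.081).

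Of 6 linker and adhesion plaque genes, 2 were called in Clusters 1+2, where 24.9% of all genes were, and none with 1 cluster (8.24% of all genes in Cluster 1 and 2.85% in Cluster 2). Pdlim7, a PDZ and LIM domain protein of stress fibres, was -0.41 and -0.18 with both vectors and 0.35 and 0.30 in Clusters 1+2, a rise of 0.62 (SE 0.0823, adjusted p = 0.000107); its 3 other probes gave 0.14, 0.18 and 0.62. Flna, the cross-linker filamin A, rose by 0.26 (SE 0.0789, adjusted p = 0.0286), and without control repeat A or Clusters 1+2 repeat B it was 0.17 and 0.20 (adjusted p = 0.211 and 0.193). The plaque proteins Vcl (vinculin), Tln1 (talin), Zyx (zyxin) and the cross-linker Actn1 changed by -0.15 to 0.10.

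Of the last 5 members, Rhpn2 alone was called in the miRNA comparisons. Its log2 ratio was -0.37 and -0.52 in the Puro vector for Cluster 1 and 1.49 and 1.32 in Cluster 1. With both vectors it was -0.96 and -0.80 and in Clusters 1+2 1.26 and 1.14, and with the Hygro vector -0.81 and -0.39 and in Cluster 2 0.40 and 0.47. In each case both overexpression arrays lay above both controls, where groups did not overlap for 51.2% of all genes with 4 values in Cluster 1, 57.8% in Clusters 1+2 and 44.2% in Cluster 2 (8.24%, 24.9% and 2.85% were called). The rises were 1.85 (SE 0.122, 3.61-fold, adjusted p = 2.22e-06) in Cluster 1, 2.08 (SE 0.122, 4.23-fold, adjusted p = 8.93e-08) in Clusters 1+2 and 1.04 (SE 0.122, 2.06-fold, adjusted p = 0.000346) in Cluster 2. Against the other Puro control Cluster 1 was still higher by 1.49 (adjusted p = 1.08e-05). With the marked spots kept, Rhpn2 was no longer called in Cluster 1 (1.17, adjusted p = 0.0556) or Cluster 2 (0.90, adjusted p = 0.263). In CDH1 Rhpn2 changed by -0.13 (SE 0.122, adjusted p = 0.595). The GTPases Rhoa and Rhoc and the kinase Rock1 were called in no miRNA comparison, with changes from -0.06 (Rhoa, Cluster 1) to 0.29 (Rhoc, Cluster 1). Rhob was not well above background on any Cy5 array, and in the Cy3 groups it changed by 0.13 and 0.29 (adjusted p = 0.731 and 0.151).

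Whether both clusters together did more than Cluster 2 alone was tested as a difference of effects, which uses separate controls. It was called for 8 of the 44 genes (18.2%), where 6.25% of all genes were called (2.9% higher, 3.34% lower). The count was 2 with marked spots kept, 3 with the spread scaled between arrays and 4 from the processed signals. The share of all genes called was then 1.42%, 0.645% and 1.82%. The rise was larger with both clusters for Ccn2 by 1.45 (SE 0.224, adjusted p = 0.00184), Gsn by 1.24 (SE 0.126, adjusted p = 0.00023), Rhpn2 by 1.04, Ccn1 by 0.97, Ankrd1 by 0.78 and Cnn2 by 0.60 (adjusted p = 0.000299 to 0.00502). The fall was larger for Wwtr1 (-0.99, SE 0.114, adjusted p = 0.000222) and Yap1 (-0.88, SE 0.141, adjusted p = 0.00295). Of the 5 YAP targets 3 were thus called in the difference, and none of the 9 smooth muscle genes. The effects of Cluster 1 and Cluster 2 differed for 2 of 44 genes (4.55%, against 2.67% of all genes, 1.73% higher and 0.946% lower), both larger in Cluster 1: Rhpn2 by 0.81 (SE 0.172, adjusted p = 0.0271) and Tpm2 by 0.53 (SE 0.122, adjusted p = 0.0396). Leaving out any 1 of the 8 arrays ended the call of Tpm2 (0.47 to 0.59, adjusted p = 0.0532 to 0.154) and leaving out any of 6 of them ended that of Rhpn2 (0.60 to 0.88). Dye and slide also differ between these experiments.

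**Figure D3:**
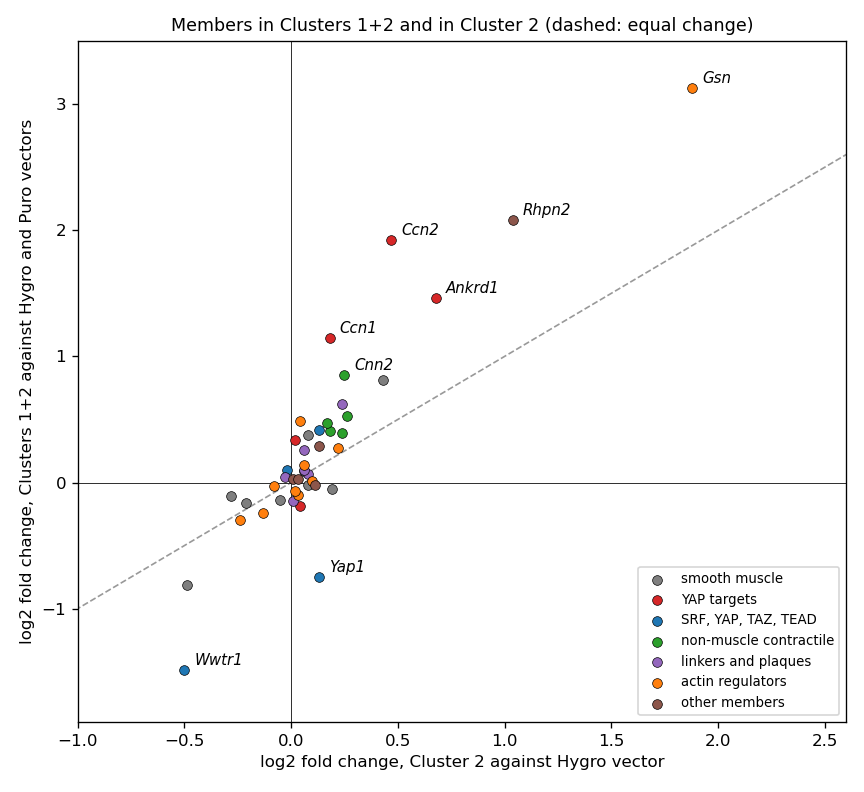
Log2 fold change of the 44 genes in Clusters 1+2 (y axis) against that in Cluster 2 (x axis), each against its own vector control, coloured by role; the dashed line marks equal change. The 8 named genes are those whose effects differed, with Ccn2, Gsn, Rhpn2, Ccn1, Ankrd1 and Cnn2 above the line and Wwtr1 and Yap1 below it.

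CDH1 overexpression gave only part of the pattern of Clusters 1+2, and much of what it gave depended on its control. Ankrd1 and Myh10 were called higher and Wwtr1 and Mylk lower in both. Gsn, Tpm2, Myh9, Tagln2, Pdlim7, Yap1 and Pfn2 were called in opposite directions, and Rhoc was called in CDH1 only. Of the 12 genes called against its own Puro control, 2 were called in the same direction against the other Puro control. These were Ankrd1, which rose by 0.49 (SE 0.0659, adjusted p = 0.000312) from -0.06 and -0.13 to 0.37 and 0.42, and by 0.74 against the other control (adjusted p = 0.000107), and Yap1. Yap1 was 0.11 and 0.23 in the control and 0.84 on the 1 CDH1 array with an unmarked spot, a rise of 0.67 (SE 0.122, adjusted p = 0.00318), and 0.66 against the other control (adjusted p = 0.0184). It was not called with the marked spots kept (0.62, adjusted p = 0.079), with the processed signals (0.95, adjusted p = 0.102) or in the sample channel alone (0.52, adjusted p = 0.121). The effect of Clusters 1+2 on Yap1 differed from that of CDH1 by -1.42 (SE 0.157, adjusted p = 6.79e-05), a value that rests on the same single CDH1 array. Wwtr1 was -0.96 and -0.85 in the control and -1.30 and -1.47 in CDH1, a fall by 0.48 (SE 0.0805, adjusted p = 0.0014), and by 0.25 against the other control (adjusted p = 0.143). Cald1, not called against CDH1's own control, was called against the other, at -0.48 (adjusted p = 0.0174). The share of all called genes that kept their call under this exchange of controls was not computed.

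The other calls in CDH1 were those of Gsn and Pfn2, given above, a rise of Myh10 by 0.37 (adjusted p = 0.0043), and falls of Myh9 by 0.64 (adjusted p = 0.000275), Mylk by 0.57 (adjusted p = 0.0103), Rhoc by 0.47 (adjusted p = 0.0078), Tpm2 by 0.37 (adjusted p = 0.011), Pdlim7 by 0.28 (adjusted p = 0.0397) and Tagln2 by 0.23 (adjusted p = 0.0453). Against the other Puro control these stood at 0.13 for Myh10, -0.12 for Myh9, -0.20 for Mylk, -0.01 for Rhoc, 0.03 for Tpm2, -0.26 for Pdlim7 and 0.01 for Tagln2, none called. Leaving out 1 array also ended the calls of Mylk (-0.47 without control repeat A, -0.53 without CDH1 repeat A), Tpm2 (-0.35 without control repeat A, -0.27 without CDH1 repeat B), Rhoc (-0.42 without control repeat B, -0.45 without CDH1 repeat B), and, whichever array it was, Pdlim7 (-0.32 to -0.24) and Tagln2 (-0.28 to -0.19). Without CDH1 repeat B, Yap1 had no value in CDH1 and 7 of the remaining 43 genes were called. The 2 Puro controls differed from each other in 10 of the 44 genes (22.7%), 3 higher and 7 lower in Cluster 1's control, where 10% of all genes were called (4.86% higher, 5.15% lower). That count was 4 without repeat B of the control for CDH1, 5 without repeat A of the control for Cluster 1 and 6 of 43 without its repeat B.

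Tested as differences of effects, Clusters 1+2 stood apart from CDH1 in 17 of the 44 genes (38.6%), 14 higher and 3 lower, where 17.7% of all genes were called (8.23% higher, 9.42% lower). Cluster 1 stood apart from CDH1 in 10 of the 44 genes (22.7%), 8 higher and 2 lower, where 16.9% of all genes were called (8.73% higher, 8.17% lower), and in 6 of 43 without CDH1 repeat B. Gsn led both, by 4.29 and 2.69, and both rest on the Puro control for CDH1. Dye and slide also differ between the Clusters 1+2 and CDH1 experiments, and slide between those of Cluster 1 and CDH1.

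The same exchange of controls left Cluster 1 with 4 of its 9 calls in the same direction: Rhpn2, Ccn2, Tpm2 and Cnn2 (0.38, adjusted p = 0.00742). It added falls of Wwtr1 by 0.41 (adjusted p = 0.00627), Mylk by 0.58 (adjusted p = 0.0149) and Myh9 by 0.36 (adjusted p = 0.0188), and rises of Cald1, Myh10 and Ezr by 0.49, 0.48 and 0.33. Here too the share of all called genes that kept their call was not computed. With the marked spots kept, Rhpn2, Ccn2, Tpm2 and Cnn2 were not called against Cluster 1's own control. They stood at 1.17, 0.90, 0.89 and 0.47 (adjusted p = 0.0556, 0.204, 0.0864 and 0.526).

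**Figure D4:**
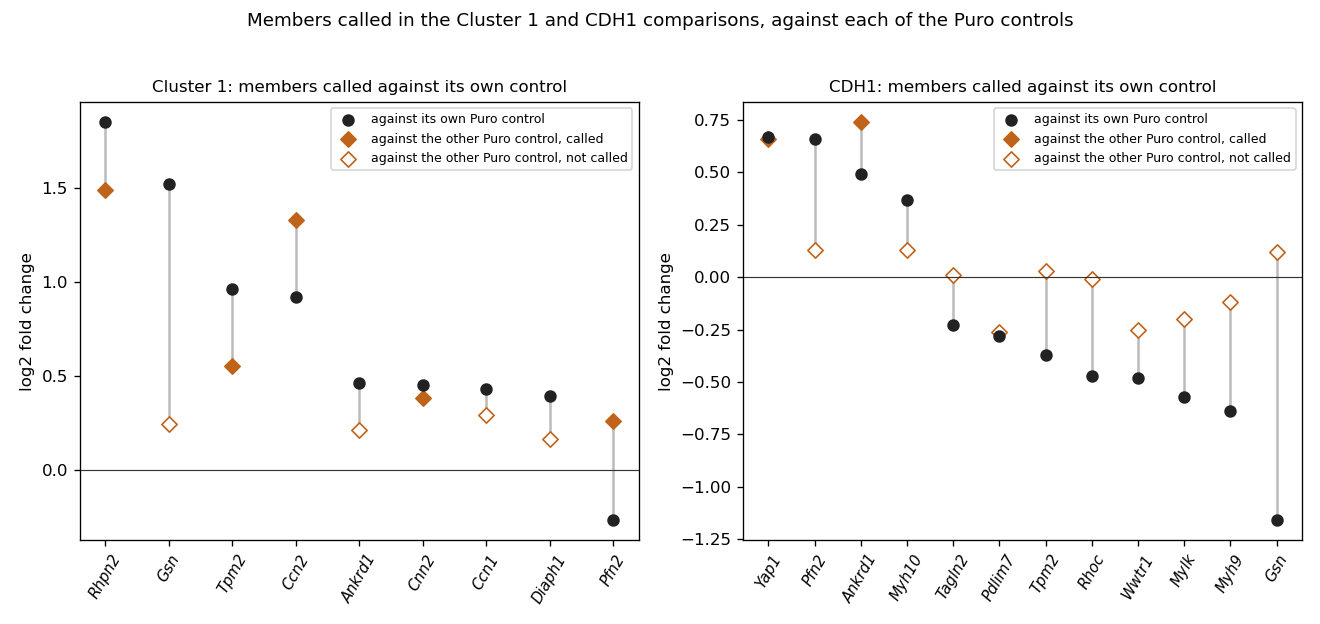
Log2 fold change (y axis) of the genes called in Cluster 1 (left, 9 genes) and in CDH1 (right, 12 genes) against their own Puro control (black circles), and of the same genes against the other Puro control (orange diamonds, filled where called). Rhpn2, Ccn2, Tpm2 and Cnn2 keep their call and direction on the left and Yap1 and Ankrd1 on the right, Pfn2 turns on the left, and Gsn goes from 1.52 to 0.24 on the left and from -1.16 to 0.12 on the right.

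Other genes of the same pathways were counted from lists taken by name, and each count in Clusters 1+2 stands beside 12.1% of all genes called higher and 12.7% lower. Of 14 further YAP targets tested in Clusters 1+2, 4 rose and 2 fell. Those that rose were the kinase gene Nuak2 by 1.72 (SE 0.0821, adjusted p = 1.52e-08), F3 (tissue factor) by 1.39 (SE 0.0815), Dock5 by 1.05 and Crim1 by 0.93, and Asap1 fell by 0.61 and Ccdc80 by 0.50. Nuak2, F3 and Dock5 were also called higher in Cluster 1 (0.31, 0.78 and 0.74) and in Cluster 2 (0.56, 0.39 and 0.44), although with marked spots kept F3 stood at -0.02 in Cluster 2. Of 16 further Hippo pathway genes 4 rose and 5 fell in Clusters 1+2. Wwc1, which encodes the upstream regulator KIBRA, rose in all 4 comparisons, by 1.42 in Clusters 1+2, 0.29 in Cluster 1, 0.44 in Cluster 2 and 0.60 in CDH1; against the other Puro control Wwc1 stood at 0.14 in Cluster 1 (adjusted p = 0.253). Vgll4, a competitor of YAP for TEAD, fell by 0.78, Sav1, a Hippo scaffold, by 0.68 and Tead2 by 0.60 in Clusters 1+2.

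Among 14 further SRF and MRTF genes tested, 1 rose and 2 fell in Clusters 1+2, a share not above the 24.9% of all genes called in either direction, and their median change was 0.0427. Fhl2, a LIM-only cofactor, rose by 0.64 in Clusters 1+2 and 0.60 in Cluster 2, Synpo2 fell by 0.51 and 0.68, and Csrp2 fell by 0.28 in Clusters 1+2 and by 0.60 in Cluster 1, where it stood at 0.01 against the other Puro control (adjusted p = 0.972). Of 9 further gelsolin family and capping genes, Scin, the gelsolin relative adseverin, rose by 0.84 in Clusters 1+2 (SE 0.19, adjusted p = 0.00557), Capza2 rose by 0.31 and Capg, a capping protein of the same family, fell by 0.70 (SE 0.106, adjusted p = 0.000327); none of the 9 was called with 1 cluster.

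Of 5 actin genes reported as miR-200 targets, 4 fell in Clusters 1+2 and none rose, where 12.7% of all genes were called lower and 12.1% higher: the phosphatase gene Ppm1f by 1.02 (SE 0.0731, adjusted p = 5.26e-07), Cfl2 (cofilin 2) by 0.77 (SE 0.0763, adjusted p = 9.71e-06), the formin gene Fhod1 by 0.68 and Msn (moesin) by 0.31. Ppm1f and Fhod1 were lower by 0.63 and 0.42 in Cluster 1, and Cfl2 by 0.33 in Cluster 2. Cfl2 was also lower by 0.30 in CDH1. In the list of 27 nucleation and turnover genes, which shares Cfl2, Fhod1 and Msn, 6 rose and 5 fell in Clusters 1+2. The formin genes Fmnl3 and Fmnl2 fell by 1.16 and 0.90 in Clusters 1+2, and Fmnl3 by 0.29 in Cluster 2 (0.03 with median centring).

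Of 24 further linker, plaque and myosin genes tested, 7 rose and 4 fell in Clusters 1+2 (as did 12.1% and 12.7% of all genes), with Lima1 up by 0.66 and Lasp1 by 0.54, and Pdlim2 at -0.66, which was 0.23 as the mean over its probes.

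None of 5 leukocyte and none of 4 endothelial markers was called in any of the 4 comparisons. Of 6 myofibroblast and pericyte markers, Rgs5 was called, lower by 0.80 in Clusters 1+2 (adjusted p = 0.000879), where 1 array alone gave it a value (0.25, against 1.24 and 0.86 with both vectors). Of 5 mesenchymal markers tested, Zeb2 fell by 2.10, Vim by 0.87 and Twist1 by 0.72 in Clusters 1+2, while Zeb1 stood at 0 (SE 0.218). Zeb2 also fell by 0.39 in Cluster 1 (adjusted p = 0.00588) and by 0.77 in Cluster 2 (adjusted p = 6.72e-05), and Fn1 fell by 1.13 in CDH1 (adjusted p = 1.35e-05); Cdh2 was not well above background in any group. Between the 2 Puro controls Fn1 differed by -0.91 and the endothelial markers Cdh5 and Kdr by -0.75 and -0.53. Neither Cdh5 nor Kdr was well above background on any array of the Puro vector for CDH1. Cluster 1, on the same slide as its control, was also low for both (means -0.64 and -0.35), while CDH1 stood at 0.02 and 0.06. The part of these markers in the results was not tested.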

How the data were processed

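The deposited scanner files give, per the file headers, an intensity for every spot and channel (Agilent Feature Extraction 9.5.3.1; array design 014868; probe positions on build mm7). Per the file headers they also carry the software's processed intensity and a log10 value of red against green. The series matrix that the authors deposited is a linear ratio and matched processed sample over reference signal on all 16 arrays. Total RNA (175 ng) was labelled, per the labels' protocols. Here spots marked by the software were removed (335 to 1675 per array), as in earlier work on these data, where that step was chosen after values had been seen. Background was corrected by normexp (offset 50), arrays were normalised by loess, and log2 ratios were averaged per probe. Probes well above background on both arrays of a group were kept, and each gene was read from its brightest probe. Members lacking an array were Gsn (2), Mylk (1) and Yap1 (1). One limma model (limma 3.58.1, R 4.3.3) with 8 group means over all arrays gave two-sided tests with Benjamini-Hochberg adjustment over all genes at 0.05. On simulated data for Clusters 1+2 against its control (18992 genes) it recovered 66% of 100 genes changed by 0.5 on the log2 scale and 94% of 100 changed by 1. The members, the lists and the rule for naming genes (every called member up to 12 per comparison by size, the smooth muscle, YAP and SRF genes and Gsn in any case, and up to 4 called genes per other list) were chosen with earlier results of these data known. Exon and UTR positions of probes were not analysed here. The alternatives tried are given in the closing section. Repeat letters were compared as possible pairs: the B minus A deviations of overexpression and control correlated at 0.274 for Cluster 2 and 0.327 for Clusters 1+2, whose letters are slides, and at -0.0112 for Cluster 1 and 0.0122 for CDH1. Results for some genes and 1 list are not reported here.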

Additional observations from a re-analysis of the deposited data

Results flagged for a closer look

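Members whose change differed between overexpression experiments, by limma's test of the difference itself at an adjusted p under 0.05, are listed here by size. Clusters 1+2 differed from Cluster 2 for Ccn2 (1.45), Gsn (1.24), Rhpn2 (1.04), Wwtr1 (-0.99), Ccn1 (0.97), Yap1 (-0.88), Ankrd1 (0.78) and Cnn2 (0.60). Cluster 1 differed from Cluster 2 for Rhpn2 (0.81) and Tpm2 (0.53), where leaving out single arrays ended both calls (0 or 1 of the 44 genes called).

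Clusters 1+2 differed from CDH1 for 17 of the 44 genes (38.6%, against 17.7% of all genes): Gsn (4.29), Rhpn2 (2.21), Ccn2 (1.44), Yap1 (-1.42), Tpm2 (1.18), Ccn1 (1.12), Myh9 (1.03), Wwtr1 (-1.01), Ankrd1 (0.97), Pfn2 (-0.96), Pdlim7 (0.90), Enah (0.78), Tagln2 (0.76), Cnn2 (0.70), Tead1 (0.54), Rhoc (0.45) and Cald1 (0.43). Cluster 1 differed from CDH1 for 10 of the 44 genes (22.7%, against 16.9% of all genes): Gsn (2.69), Rhpn2 (1.98), Tpm2 (1.33), Pfn2 (-0.93), Myh9 (0.80), Rhoc (0.76), Yap1 (-0.71), Pdlim7 (0.46), Diaph1 (0.39) and Tagln2 (0.39). Without CDH1 repeat B, where Yap1 had no value, this last count was 6 of 43. Both sets rest on the Puro control for CDH1. The Puro controls differed by -1.28 for Gsn (Cluster 1's control minus CDH1's), and the part of CDH1's control in the differences was not tested. Dye and slide also differ between the Clusters 1+2 and CDH1 experiments, and slide between those of Cluster 1 and CDH1. With 2 arrays per group, single arrays that stand apart were not looked for by a rule.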

How the results depend on the processing

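Of 3913 values of members under alternatives other than leaving out an array, 3576 kept their direction and side of the threshold, 222 lost the call, 100 gained one and 15 reversed; of 2275 with an array left out, 2168, 93, 14 and 0 did so. Counts of members called moved by over 1.5 times as follows, and the causes were not tested. With marked spots kept, they were 1 (Cluster 1), 2 (Cluster 2), 14 (Clusters 1+2), 5 (CDH1), 2 (Clusters 1+2 minus Cluster 2), 0 (Cluster 1 minus Cluster 2), 4 (Cluster 1 minus CDH1) and 2 (Puro against Puro). Of all genes, 1.01%, 0.411%, 13.9%, 6.57%, 1.42%, 0.153%, 6.1% and 2.77% were called in the same order. With median centring the member counts were 21 (Cluster 2, 12.1% of all genes) and 6 (Puro against Puro, 8.5% of all genes). With the spread scaled between arrays they were 3 (Cluster 2), 14 (Clusters 1+2), 3 (Clusters 1+2 minus Cluster 2) and 1 (Cluster 1 minus Cluster 2). The shares of all genes called were then 0.385%, 9.88%, 0.645% and 1.81%. The sample channel alone and slide 1 alone each gave 2 for Cluster 2, processed signals gave 4 for Clusters 1+2 minus Cluster 2, and the other Puro control gave 3 for CDH1. Cluster 1 minus Cluster 2 gave 1 with offset 10, with processed signals and with the mean over probes, and 0 with no filter, where 2 had been called. Of all genes, 1.9%, 1.39%, 2.21% and 1.08% were called under these settings. With 1 array left out the counts ran from 7 to 8 (Cluster 1), 3 to 5 (Cluster 2), 19 to 21 (Clusters 1+2), 7 to 10 (CDH1), 7 to 8 (Clusters 1+2 minus Cluster 2), 0 to 1 (Cluster 1 minus Cluster 2), 6 to 11 (Cluster 1 minus CDH1), 14 to 17 (Clusters 1+2 minus CDH1) and 4 to 7 (Puro against Puro); a lone array was assumed to vary like the other groups.

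The fit with the replicate block called 10, 5, 22 and 12 members in Cluster 1, Cluster 2, Clusters 1+2 and CDH1, beside 8.42%, 3.25%, 25.8% and 15.8% of all genes. It ended the calls of Tagln2 (-0.23, adjusted p = 0.062) and Pdlim7 (-0.28, adjusted p = 0.0528) in CDH1.

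Values that reversed were these. Against the other Puro control, in Cluster 1: Myh9 -0.36, Pfn2 0.26, Csrp2 0.01, Ccdc80 -0.04; in CDH1: Tpm2 0.03, Tagln2 0.01, Gsn 0.12, Csrp2 -0.29, Mob1a 0, Capza2 -0.03, Rhoj -0.44. In the sample channel alone: Cald1 -0.56 and Pfn1 -0.59 (Cluster 1), Pfn1 -0.72 (Cluster 1 minus CDH1), and, between the Puro controls, Actg2 -1.19, Cnn1 -1.01, Cald1 -0.46, Ankrd1 0.36, Lats2 0.80, Flna -0.63 and Zyx -0.36. With marked spots kept: F3 -0.02 (Cluster 2), Csrp2 -0.05 and Axl -0.02 (CDH1). Fmnl3 was 0.03 in Cluster 2 with median centring, and Pdlim2 0.23 in Clusters 1+2 as the mean over probes. The precision of all values is limited by 2 arrays per group, and Rhob, Cnn1, Lats2 and Pfn2 were not well above background on some arrays.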
